A study of Mus musculus with 768 samples.

Results

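A set of 10 genes that mark the radial glia-like stem cells of the mouse dentate gyrus was followed across the single cells of this study: the transcription factors and cofactor *Hopx*, *Sox2*, *Sox9*, *Tfap2c* and *Nr2e1*, the lipid carrier *Fabp7*, the receptors *Egfr*, *Fgfr3* and *Lpar1*, and *Riiad1*, which encodes a protein with an RIIa domain. They are 10 of the 32679 genes in the count table and are known markers named by symbol. Nestin:GFP mice carry a green reporter driven by regulatory sequence of the nestin gene, and GFP-positive cells were sorted from the dentate gyrus of 8 males aged 2 months. The miR-132 group is 4 mice (numbered 2, 4, 6 and 8) injected with a miR-132 mimic, and the Control group is 4 mice (1, 3, 5 and 7) injected with a negative control oligonucleotide. All 8 mice received 150 pmol of oligonucleotide with lipofectamine 2000 in a volume of 3 µl, weekly over 5 weeks. The labels give the date 17 April 2018 for mice 1 to 4 and 19 April 2018 for mice 5 to 8, so each date holds 2 mice of each group. The series text places the letters AD before dentate gyrus without saying what they stand for, and gives 94 sorted cells per mouse, while the table holds 96 wells per mouse.

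Radial glia-like cells are the stem cells of the adult dentate gyrus. They share most of their transcripts with mature astrocytes, divide slowly, and give rise to intermediate progenitors that become neuroblasts and then granule neurons. *Hopx*, *Sox2*, *Sox9*, *Nr2e1* and *Fabp7* are used as their markers, *Egfr* and *Fgfr3* receive the growth factors that act on them, and reporters of *Lpar1*, a receptor for lysophosphatidic acid, have been used to label them in mice.

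The genes lie on mm10 (GENCODE M21, strand in brackets) with *Hopx* at chr5:77086988-77115121 (minus), *Sox2* at chr3:34650405-34652461 (plus), *Sox9* at chr11:112782224-112787760 (plus), *Tfap2c* at chr2:172549593-172558622 (plus), *Fabp7* at chr10:57784881-57788450 (plus), *Nr2e1* at chr10:42561963-42583632 (minus), *Egfr* at chr11:16752203-16918158 (plus), *Fgfr3* at chr5:33721674-33737068 (plus), *Lpar1* at chr4:58435255-58553898 (minus) and *Riiad1* at chr3:94464983-94480341 (minus). All are protein-coding.

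Sequences that bear on the values are given first. The injected agent mimics miR-132, whose mature 3p strand lies at chr11:75173723-75173744 (plus strand, mm10, RefSeq GRCm38.p6). Its seed, bases 2 to 8, is in capitals.

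mmu-miR-132-3p: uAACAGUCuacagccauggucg

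The 7 bases complementary to this seed, GACTGTT, were searched in the longest 3′ untranslated region of each member (GENCODE M21). Of the 10 members, *Egfr* alone held a match, with 2 in a region of 6303 bases, while 11.1% of the 21150 annotated genes with such a region held at least 1, at a median length of 1085 bases. Neither *Egfr* match extended to 8 bases. The matches lie at chr11:16914963-16914969 and chr11:16917698-16917704 on the plus strand and are in capitals below.

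Egfr upstream match: ttgataagggGACTGTTggcactcact

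Egfr downstream match: aggatataatGACTGTTtctagatgtg

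A match is a run of letters and does not show that the site is used. The promoters of *Hopx* are shown because every astrocyte-like well with *Tfap2c*, the AP-2γ transcription factor, also held *Hopx* (values below). These 5 wells likewise all held *Sox9*, *Fabp7* and *Fgfr3*, and 38 of the 90 wells without *Tfap2c* held *Hopx*. RefSeq lists 2 *Hopx* starts, both on the minus strand, and the windows run from 250 bases before to 50 after each start (GRCm38.p6). GCCNNNGGC, the AP-2 consensus, is its own reverse complement and is in capitals.

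Hopx distal promoter, chr5:77115074-77115373: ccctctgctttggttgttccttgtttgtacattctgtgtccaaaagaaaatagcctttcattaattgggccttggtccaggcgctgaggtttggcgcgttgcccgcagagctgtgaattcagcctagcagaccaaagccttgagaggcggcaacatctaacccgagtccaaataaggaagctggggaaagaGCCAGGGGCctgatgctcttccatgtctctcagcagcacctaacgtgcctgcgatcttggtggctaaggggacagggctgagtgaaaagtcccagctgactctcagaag

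Hopx proximal promoter, chr5:77095218-77095517: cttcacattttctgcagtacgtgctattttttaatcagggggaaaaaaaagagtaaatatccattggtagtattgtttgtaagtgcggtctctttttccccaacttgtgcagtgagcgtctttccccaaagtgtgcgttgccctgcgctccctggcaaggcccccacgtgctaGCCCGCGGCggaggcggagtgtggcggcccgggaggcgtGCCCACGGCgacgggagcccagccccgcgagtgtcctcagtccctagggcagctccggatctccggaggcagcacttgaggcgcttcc

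The distal window held 1 match and the proximal window 2, and 16.6% of the 32851 promoter windows of this length held at least 1. None of the other windows available for members (*Sox2*, *Lpar1*, *Fgfr3*, *Nr2e1*, *Fabp7* and *Egfr*) held this motif. A motif match does not show that AP-2γ binds there, and a link between *Tfap2c* and *Hopx* was not tested.

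Of the 768 wells, 675 held at least 50000 counts and 1000 genes (75 to 92 per mouse, median 646537 counts and 2741 genes), and each mouse summed to between 43900000.0 and 66900000.0 counts. Each sample entry names a well in its title and other wells in its description, and these 2 maps give the same mouse for 96 wells and the same treatment for 50% of the 768. The description map is used throughout. The tests were also run by the title map, and those whose call or direction differed are given with both, while ranges and counts over mice are by the description map unless said otherwise. Classes were set by clustering without the 10 genes and named from markers that exclude them, which gave 95 astrocyte-like, 38 neuroblast-like, 71 pericyte-like, 12 smooth muscle-like, 16 fibroblast-like and 18 oligodendrocyte precursor-like wells. A further 43.6% of the kept wells were oligodendrocyte-like (22 to 52 per mouse) and 15.9% endothelial-like (4 to 23 per mouse), and 24 wells stayed unnamed, 16 of them above 6000 genes. All 10 astrocyte markers, among them *Aqp4* and *Slc1a3*, were present in at least 25% of the astrocyte-like wells, with a median summed level of 34884 CPM (counts scaled to the well's total of 1000000). These wells came from 2 clusters: cluster 6 (38 wells, median 2213.5 genes) and cluster 8 (57 wells, median 2845 genes). Neither had an astrocyte marker among its 10 leading genes by fold (6 and 4 by difference of log values), and cluster 6 had 2 ependymal markers there, which became 0 without the 1 well whose best marker list was ependymal. Values are therefore also given by cluster. Of the 2 oligodendrocyte-like clusters, the smaller (83 wells) had 4 microglia markers among its 10 leading genes. There was no radial glia-like class apart from these, and detection below means 10 CPM or more in a well.

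The next shares leave out the 16 wells above 6000 genes, whose detection was not counted. Among the other kept wells, for 9 of the 10 genes most of the wells that held the gene were astrocyte-like. *Sox2* was nearest to an even split (35 of 68 wells), and for *Lpar1* most were oligodendrocyte-like. Of the wells with a gene, the share that was astrocyte-like was 85.7% for *Nr2e1*, 82.7% for *Hopx*, 80.2% for *Fgfr3*, 75.5% for *Egfr*, 71.7% for *Sox9*, 67.3% for *Fabp7*, 60% for *Riiad1*, 55.6% for *Tfap2c* and 51.5% for *Sox2*, against 1.57% for *Lpar1*. Per kilobase of exon, the mean levels over 8 mice in astrocyte-like wells were 251.97 CPM for *Fabp7*, 217.3 for *Fgfr3*, 111.1 for *Sox9*, 27.2 for *Hopx*, 23.1 for *Nr2e1*, 20.7 for *Sox2*, 15.3 for *Riiad1*, 14.7 for *Egfr*, 2.31 for *Lpar1* and 1.00 for *Tfap2c*. The first 2 lay within their spread (SD 99.8 and 60.3), as did the 5 from *Hopx* to *Egfr* (SD 9.68 to 27.5), while *Sox9* (SD 21.6) stood between these groups.

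**Figure D1:**
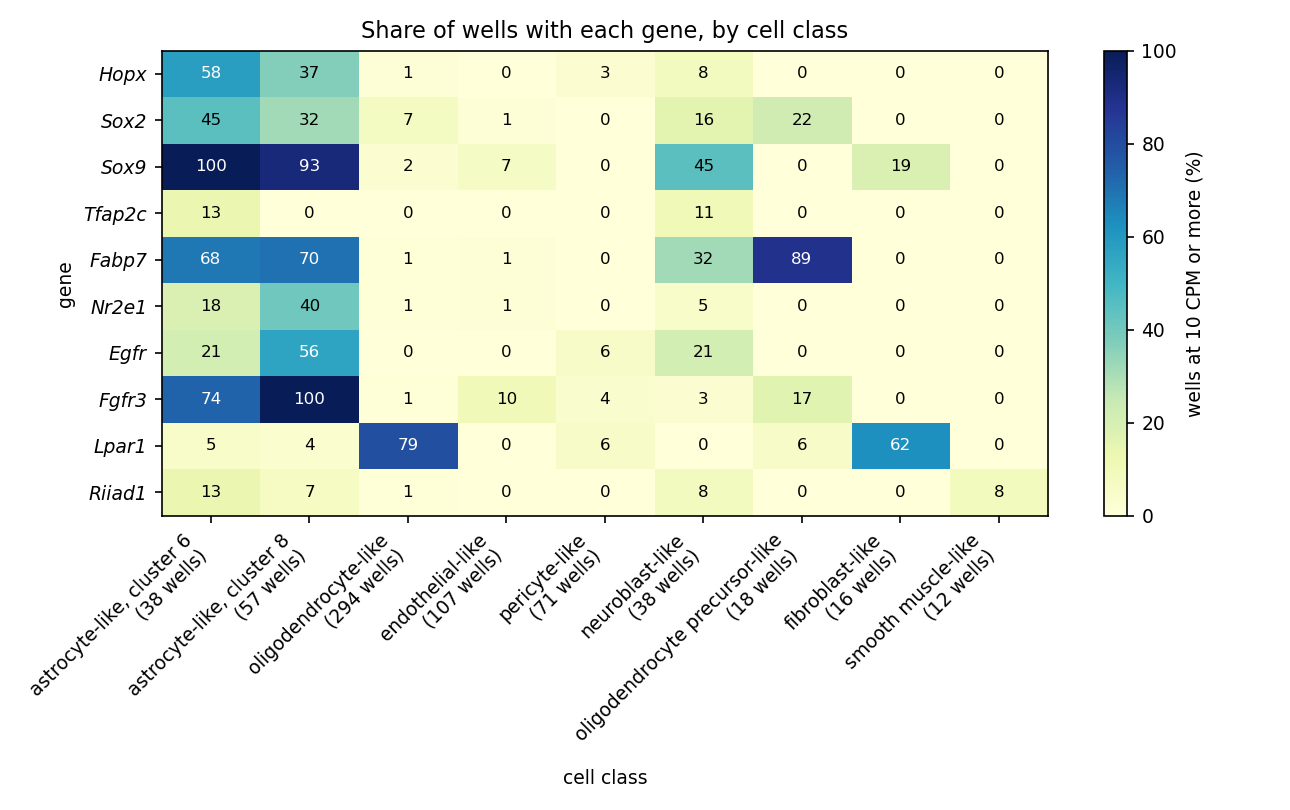
Share of wells (%) with 10 CPM or more of each gene (rows) in each named cell class (columns, the astrocyte-like class as its clusters 6 and 8), with darker cells for higher shares. *Sox9* (95.8% over both clusters) and *Fgfr3* (89.5%) were in most astrocyte-like wells, while *Lpar1* was in 79.3% of oligodendrocyte-like and 62.5% of fibroblast-like wells.

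*Hopx* encodes a small homeodomain protein that does not itself bind DNA and marks quiescent stem cells. It was detected in 43 of 95 astrocyte-like wells (45.3%, 95% exact binomial interval 35.02 to 55.8%, which covers counting error only). It was in 7.89% of neuroblast-like, 2.82% of pericyte-like and 1.36% of oligodendrocyte-like wells, and in 0 endothelial-like wells, which allows up to 2.80% of the wells of that class to be at 10 CPM or more (3 wells of the class) and says nothing of how many cells express the gene. Well depth was of the same order in these classes, with medians of 577019 counts in astrocyte-like and 706150 in oligodendrocyte-like wells. Summed by mouse, the astrocyte-like level ran from 15.5 over a median of 35.7 to 87.9 CPM, with no mouse at 0, and the oligodendrocyte-like level from 0 over a median of 0 to 3.83 CPM, so the ranges did not overlap.

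In the fit over all genes (edgeR quasi-likelihood test with the mouse as block, Benjamini-Hochberg adjustment), *Hopx* was higher in astrocyte-like wells than in endothelial-like (adjusted p = 0.00103), oligodendrocyte-like (0.0160) and pericyte-like wells (0.0193), and did not pass against neuroblast-like wells (0.189). Over the summed counts the astrocyte-like level was at least 892-fold higher than in endothelial-like wells, where no count was found in the class and 3 counts over the class set the bound. The pericyte-like call was lost on leaving out any of mice 2, 3, 6 or 8 (adjusted p 0.0505 to 0.0583). The unstranded reads cannot tell *Hopx* from its antisense neighbour *Hopxos*, which shares 412 exon bases.

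*Sox9*, an SRY-box factor of glial fate, was the most widespread member, in 91 of 95 astrocyte-like wells (95.8%). It was in 44.7% of neuroblast-like, 6.54% of endothelial-like and 2.38% of oligodendrocyte-like wells and had no count in pericyte-like wells. By mouse it ran from 331.4 over a median of 467 to 602 CPM in astrocyte-like wells, against 0 to 28.95 CPM in endothelial-like and 0 to 4.86 CPM in oligodendrocyte-like wells. It was higher in astrocyte-like than endothelial-like wells by 6.26 ± 1.45 on the log2 scale (SE, edgeR adjusted p = 0.00337) and than oligodendrocyte-like wells by 9.0 ± 1.54 (adjusted p = 0.000218), and at least 6699.9-fold higher than in pericyte-like wells (adjusted p = 3.73e-06). Against neuroblast-like wells it did not pass (edgeR adjusted p = 0.4035).

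*Sox2*, the related factor that maintains stem cells, was in 35 astrocyte-like wells (36.8%), 22.2% of oligodendrocyte precursor-like, 15.8% of neuroblast-like and 7.14% of oligodendrocyte-like wells. Its astrocyte-like level by mouse ran from 3.06 over 33.6 to 100.8 CPM, and its oligodendrocyte-like level from 0.0472 over 2.52 to 9.47 CPM, so these ranges overlapped. It was called higher in astrocyte-like wells against endothelial-like (edgeR adjusted p = 0.000131) and pericyte-like wells (2.44e-05), and not against oligodendrocyte-like wells (log2 2.79 ± 1.32, SE, adjusted p = 0.173; DESeq2 0.0366, and 0.0228 by the title map). Against neuroblast-like wells it did not pass (edgeR adjusted p = 0.740). *Sox2* lies inside *Sox2ot* on the same strand but shares no exon bases with it.

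*Nr2e1*, the orphan nuclear receptor TLX, was in 30 astrocyte-like wells (31.6%) and in at most 5.26% of the wells of any other class. By mouse it ran from 14.1 over 89.2 to 137.2 CPM in astrocyte-like wells, and from 0 over 0 to 26.8 CPM in oligodendrocyte-like wells, where 2 wells had a median of 637 CPM. It was called higher against endothelial-like (edgeR adjusted p = 0.00834), pericyte-like (0.000745) and oligodendrocyte-like wells (0.0499). The oligodendrocyte-like call was lost on leaving out any of mice 1 to 5 (0.105 to 0.175), and the endothelial-like call on leaving out mouse 2 (0.0515). Without the mouse block neither held (0.153 against endothelial-like and 0.2135 against oligodendrocyte-like wells), and the oligodendrocyte-like call was also lost with classes by marker mean (0.0536) and at clustering resolution 2 (0.0518). Against neuroblast-like wells it did not pass (edgeR adjusted p = 0.212), while by the title map it did (0.0122).

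*Tfap2c* was rare: 5 astrocyte-like wells (5.26%) and 4 neuroblast-like wells (10.5%), and no other class had a well at 10 CPM. Its summed level was 2.29 CPM in astrocyte-like and 15.4 CPM in neuroblast-like wells, where the 3 mice tested had 0, 62.7 and 1.95 CPM (mice 1, 2 and 3). Leaving out 1 mouse at a time moved the fitted log2 difference between these classes from -4.23 to 0.68, so its direction was not stable. No contrast passed (edgeR adjusted p = 0.0512 against oligodendrocyte-like, 0.0521 against pericyte-like, 0.0838 against endothelial-like and 0.752 against neuroblast-like wells). With classes set per well by markers it passed against oligodendrocyte-like, pericyte-like and endothelial-like wells (0.0300, 0.0319 and 0.0494), and likewise without the mouse block. By the title map it passed against endothelial-like and pericyte-like wells (0.0396 and 0.0464), and with RLE size factors against oligodendrocyte-like wells (0.0465).

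*Fabp7*, the brain lipid-binding protein of radial glia, was in 66 astrocyte-like wells (69.5%), in 16 of 18 oligodendrocyte precursor-like wells (88.9%) and in 31.6% of neuroblast-like wells. By mouse it ran from 152.04 over 273.1 to 525 CPM in astrocyte-like wells, against 0 to 2.32 CPM in oligodendrocyte-like wells, with no overlap. It was called higher against endothelial-like (edgeR adjusted p = 2.64e-06), oligodendrocyte-like (2.98e-06) and pericyte-like wells (5.79e-07), and not against neuroblast-like wells (0.433). The precursor-like wells were too few per mouse for a test.

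*Fgfr3*, a fibroblast growth factor receptor of astroglia, was in 85 astrocyte-like wells (89.5%) and ran from 1073 over 1532 to 2300.2 CPM by mouse. It was also in 11 endothelial-like wells (10.3%), which had 0 over 34.9 to 82.01 CPM by mouse, and in 1 neuroblast-like well. It was the only member called against all 4 classes: higher than in oligodendrocyte-like (edgeR adjusted p = 2.99e-05), pericyte-like (0.000206), endothelial-like (log2 5.53 ± 1.65, SE, 0.0184) and neuroblast-like wells (0.0228). The neuroblast-like call, which rests on 3 mice, was lost on leaving out mouse 1, 2 or 3 (0.0824, 0.0580 and 0.140) and without the mouse block (0.1125), and the endothelial-like call on leaving out mouse 3 (0.0537). *Fgfr3* shares 998 exon bases with the antisense gene *G630022F23Rik*.

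*Egfr*, the epidermal growth factor receptor, was in 40 astrocyte-like wells (42.1%) and 8 neuroblast-like wells (21.1%). By mouse it ran from 38.6 over 126.7 to 325.2 CPM in astrocyte-like wells. Among wells that held it the median was 263.6 CPM in the astrocyte-like and 413 CPM in the neuroblast-like class. It was called higher against endothelial-like (edgeR adjusted p = 0.000433) and oligodendrocyte-like wells (0.000954), and not against pericyte-like (0.0513) or neuroblast-like wells (0.890). Under 6 alternatives it passed against pericyte-like wells: DESeq2 (0.00138), RLE size factors (0.0478), no low-count filter (0.0337), without mouse 5 (0.0278), without mouse 7 (0.0378) and by the title map (0.0275). Among pericyte-like wells 4 held *Egfr*, the highest at 1119 CPM.

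*Lpar1* went the other way. It was in 4 astrocyte-like wells (4.21%, interval 1.16 to 10.4%), against 79.3% of oligodendrocyte-like wells (interval 74.2 to 83.7%) and 10 of 16 fibroblast-like wells (62.5%). By mouse the astrocyte-like level ran from 0 over 0.20 to 50.8 CPM, against 306.4 over 384.4 to 486 CPM in oligodendrocyte-like wells, with a wide gap between the ranges. It was lower in astrocyte-like than oligodendrocyte-like wells (log2 -6.65 ± 1.91, SE, edgeR adjusted p = 0.0168), which was 0.0594 without mouse 5. It was higher than in endothelial-like wells (adjusted p = 0.0141), where 1 count was found, and this call was lost without mouse 2, 3 or 6 (0.0701 to 0.0749). It did not pass against neuroblast-like (edgeR adjusted p = 0.138) or pericyte-like wells (0.959).

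*Riiad1* was in 9 astrocyte-like wells (9.47%) from 3 mice, 3 neuroblast-like wells, 2 oligodendrocyte-like wells and 1 smooth muscle-like well, and no contrast passed (edgeR adjusted p 0.0663 to 0.372). Without the mouse block it passed against endothelial-like (0.0160) and pericyte-like wells (0.0115), and by the title map against these (0.00525 and 0.00653) and oligodendrocyte-like wells (0.0478). It shares 74 exon bases with *Celf3* on the other strand.

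In total, 8 members were called higher and 0 lower against endothelial-like wells, where 10.6% and 6.0% of the 15034 genes tested were called in each direction. Against oligodendrocyte-like wells 6 were higher and 1 lower (background 7.25% and 7.14%), against pericyte-like wells 6 higher and 0 lower (13.2% and 4.01%), and against neuroblast-like wells 1 higher and 0 lower (2.4% and 1.42%). The median log2 difference of the 10 was 9.30, 7.60, 9.87 and 5.54 in these 4 contrasts, in the order endothelial-like, oligodendrocyte-like, pericyte-like and neuroblast-like, against 0.53, -0.46, 1.11 and 0.11 over all genes tested, though fitted values of genes with many sums at 0 depend on the prior count. Of the 22 member calls, 15 held under every alternative tried, and all 22 held by the title map, by which 8 further contrasts passed.

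Relatives of the members showed which partners the same wells held. Of the other 21 radial glia and stem cell genes, 17 were tested, and 9 were higher and 2 lower against endothelial-like, 13 and 0 against oligodendrocyte-like, 11 and 1 against pericyte-like, and 1 and 0 against neuroblast-like wells. *Gfap* was in 80% of astrocyte-like wells, *Id4* in 54.7%, *Pax6* in 44.2%, *Hes5* in 42.1% and *Emx2* in 21.1%. *Nes*, whose reporter was used for the sort, was in 32.6% of astrocyte-like but 98.6% of pericyte-like wells, and was lower in astrocyte-like wells (log2 -3.41 ± 0.64, SE, edgeR adjusted p = 0.000261). Of the 12 mature astrocyte genes outside the class markers, 12, 9, 11 and 12 were higher against endothelial-like, oligodendrocyte-like, pericyte-like and neuroblast-like wells. Unlike the members, the genes of these lists and the relatives described below were not kept out of the clustering that set the classes. Their differences between classes may therefore come in part from how the classes were drawn, and the size of that part was not tested.

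Among receptors, *Fgfr1* was in 65.3% of astrocyte-like wells and *Fgfr2* in 38.9%, while *Fgfr2* was in 94.2% of oligodendrocyte-like wells (astrocyte-like lower, log2 -3.19 ± 0.71, SE, edgeR adjusted p = 0.00190). *Etv4*, a factor induced by fibroblast growth factor signalling, was in 26.3% of astrocyte-like wells and was called higher against all 4 classes (adjusted p 9.61e-05 to 0.0258). Of 12 tested genes in this list, 8 higher and 1 lower were called against endothelial-like, 4 and 2 against oligodendrocyte-like, 4 and 1 against pericyte-like, and 3 and 0 against neuroblast-like wells. In the EGF receptor family *Erbb3* was in no astrocyte-like well and in 51.4% of oligodendrocyte-like wells, and *Hbegf*, a ligand of *Egfr*, was in 33.7% of astrocyte-like wells. Of this family 0, 5 (2 higher, 3 lower), 1 and 0 of 8 tested genes were called against endothelial-like, oligodendrocyte-like, pericyte-like and neuroblast-like wells. Over all genes tested, 16.6, 14.4, 17.2 and 3.82% were called in either direction in these contrasts, in the same order.

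Around *Lpar1*, *Enpp2*, which encodes autotaxin, the enzyme that makes lysophosphatidic acid, was in 7.37% of astrocyte-like and 99.7% of oligodendrocyte-like wells (log2 -7.88 ± 2.04, SE, edgeR adjusted p = 0.00749). *Plpp3*, a phosphatase that removes it, was in 93.7% of astrocyte-like and 37.1% of oligodendrocyte-like wells (log2 4.52 ± 1.08, adjusted p = 0.00365). *Lpar4* was in 11.6% of astrocyte-like wells, against 4.21% for *Lpar1*. Of the SRY-box relatives *Sox10* was in no astrocyte-like well and in 97.6% of oligodendrocyte-like wells, *Sox21* in 24.2% and *Sox6* in 48.4% of astrocyte-like wells, and *Sox11* in 2 astrocyte-like wells and every neuroblast-like well. *Fabp5* was in 74.7% of astrocyte-like, 88.4% of oligodendrocyte-like and every neuroblast-like well. No AP-2 relative of *Tfap2c* was detected in an astrocyte-like well.

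Within the 95 astrocyte-like wells, each well held between 1 and 8 of the 10 genes, with a median of 4; 41 wells (43.2%) held 5 or more and 14 held at most 2. With every well thinned to 200000 counts, which 94 wells allowed, the median was again 4 and *Hopx* was in 43 wells. Detection there meant 2 counts or more, the same limit as 10 CPM, so little change was possible. Thinning evens out read depth only and does not address other differences between wells. Wells with *Hopx* also held *Sox9* in 95.3%, *Fgfr3* in 90.7%, *Fabp7* in 79.1%, *Egfr* in 46.5%, *Sox2* in 44.2% and *Nr2e1* in 39.5% of cases, against 96.2%, 88.5%, 61.5%, 38.5%, 30.8% and 25% of wells without it. *Sox2* wells held *Fabp7* in 85.7%, against 60% of wells without *Sox2*. These are shares of wells, not of mice, and carry no test.

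**Figure D2:**
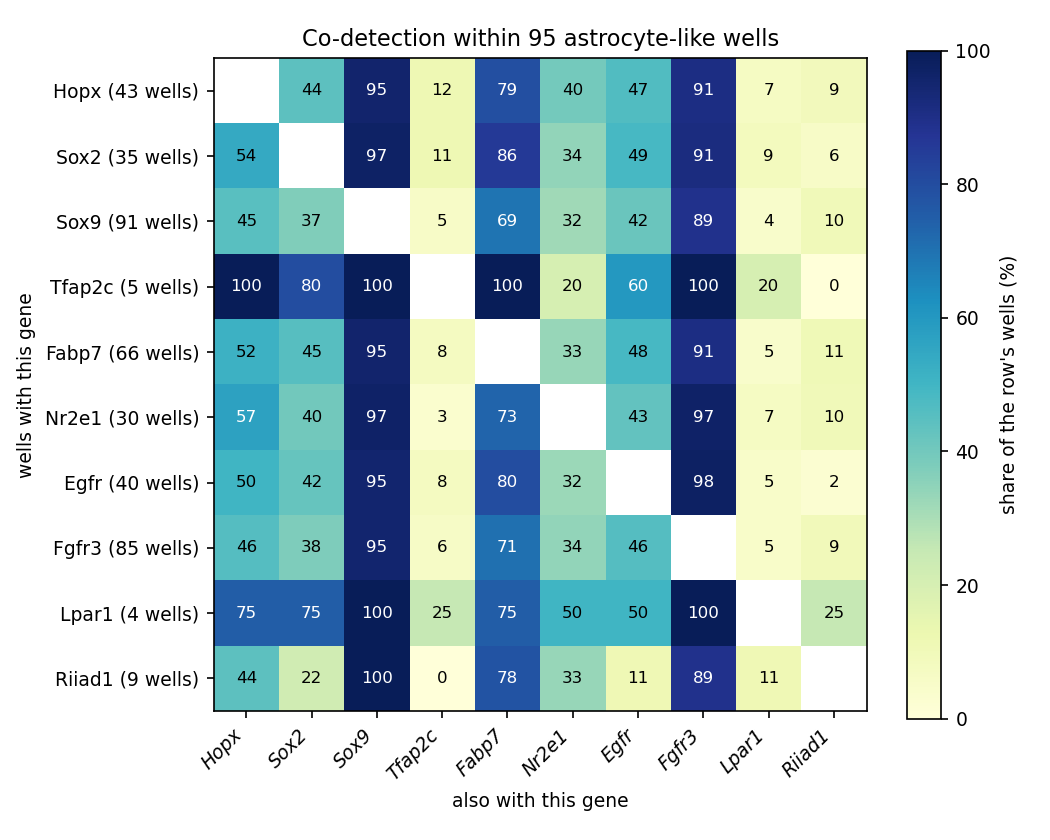
Share (%) of the astrocyte-like wells with the row's gene that also held the column's gene at 10 CPM or more, for the 95 wells pooled over 8 mice. The *Tfap2c* row reads 100% for *Hopx*, *Sox9*, *Fabp7* and *Fgfr3*, over 5 wells.

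The 43 wells with *Hopx* came from all 8 mice, as did the 52 without. *Fabp7* averaged 495 CPM in wells with *Hopx* and 194.1 CPM in wells without, *Nr2e1* 107.3 and 58.9 CPM, *Nes* 38.2 and 13.5 CPM, and *Vim* 192.8 and 108.8 CPM. *Fgfr3* averaged 1433 and 1612 CPM, *Gja1* (connexin 43) 2495 and 3063 CPM, *S100b* 154.2 and 261.4 CPM, and *Aqp4* 1053 and 972 CPM. Of the 21 radial glia genes, 14 had a higher and 5 a lower mean with *Hopx*, and of the 12 mature astrocyte genes 2 were higher and 10 lower, though 6 of the 12 were in a higher share of wells. Of the 10 astrocyte markers that named the class, 3 were higher and 7 lower. Wells split by other members gave other tallies. With *Egfr*, 7 radial glia genes had a higher and 12 a lower mean, and 9 mature astrocyte genes a higher and 3 a lower one. With *Riiad1*, 7 radial glia genes were higher and 12 lower, and mature astrocyte genes 6 and 6. Cluster 6 supplied 22 of the 43 wells with *Hopx* and 16 of the 52 without. The wells with *Hopx* had more genes, with a median of 3011 against 2392.5, at 591542 against 574995 counts, and the part of this difference in the shares was not tested. The 5 genes most like *Hopx* over the 95 wells, by Spearman correlation of log2(CPM + 1) among 3707 genes, were *Rpl36a* (rho 0.46), *Rps16* (0.42), *Ube2l3* (0.42), *Arl8b* (0.39) and *Bmpr2* (0.39), while *Fabp7* had 0.31, *Tfap2c* 0.28 and the number of genes per well 0.30. The other members were lower, with *Nr2e1* at 0.12, *Sox2* 0.10, *Lpar1* 0.096, *Riiad1* 0.087, *Sox9* 0.023, *Egfr* 0.010 and *Fgfr3* -0.038. Wells share depth and mouse, so these are descriptions, and weak ones in sparse counts.

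The 5 wells with *Tfap2c* came from 4 mice (1, 2, 5 and 6; 2 wells from mouse 2) and were all in cluster 6. *Tfap2c* stood at 18.1, 22.3, 39.7, 50.7 and 163.4 CPM in them, and *Hopx* ran from 53.9 to 191.3 CPM. All 5 also held *Sox9*, *Fabp7*, *Fgfr3*, *Nes*, *Vim*, *Id4*, *Hes5* and *Notch2*, and 4 held *Sox2*, 3 *Egfr* and 1 *Nr2e1*. *Fabp7* averaged 1288 CPM in wells with *Tfap2c* and 276.96 CPM in the 90 without, *Nes* 177.9 and 16.2 CPM, *Vim* 575 and 123.06 CPM, and *Hes5* 308.03 and 98.7 CPM. *Aqp4*, the water channel of astrocyte endfeet, averaged 59.9 and 1061 CPM, *Gja1* 683 and 2924 CPM, and *Gjb6* 57.7 and 1008 CPM. *S100b* was detected in 0 of 5 wells with *Tfap2c* and 63 of 90 without, and the GABA transporter *Slc6a11* in 0 and 67. Of the 90 wells without *Tfap2c*, 57 were in cluster 8, and cluster 6 as a whole had lower by-mouse medians than cluster 8 for *Aqp4* (553 against 1243 CPM) and *Gjb6* (511 against 1381 CPM). Set against the 33 other wells of cluster 6, a comparison chosen after seeing the data, the means with and without *Tfap2c* were 1288 and 377.6 CPM for *Fabp7*, 177.9 and 28.3 CPM for *Nes*, 575 and 200.99 CPM for *Vim*, and 308.03 and 130.5 CPM for *Hes5*. They were 59.9 and 698 CPM for *Aqp4*, 683 and 1805 CPM for *Gja1*, and 57.7 and 573 CPM for *Gjb6*, and *S100b* was in 0 and 24 and *Slc6a11* in 0 and 19 wells.

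Of the 21 radial glia genes, 12 had a higher and 7 a lower mean in the wells with *Tfap2c*, against the other 90 wells and against the 33 of cluster 6 alike. Those lower than in the 90 wells include *Gfap*, a filament gene of both cell types, at 0 to 2083 CPM in the 5 wells. Its mean was 1300 CPM over all astrocyte-like wells. *Sox21*, also lower, was at 0 in each of the 5. Of the 12 mature astrocyte genes, 11 had a lower mean than in the 90 wells, and the one that did not was *Itih3* (654 against 243.3 CPM), while 6 of the 12 were in a higher share of wells. Against the 33 wells of cluster 6, 9 had a lower and 3 a higher mean. Of the 10 class markers 8 had a lower mean and 2 a higher one, *Slc1a3* and *Mlc1* (3802 against 1492 CPM). *Slc1a3* and *Aldoc*, which both radial glia and astrocytes express, were in all 5 wells at 7760.1 and 7880 CPM, against 7119.8 and 8688 CPM in the wells without. Median genes per well were 3011 with and 2539.5 without *Tfap2c*. *Nes* and the other genes named here come from lists drawn up with earlier results known.

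**Figure D3:**
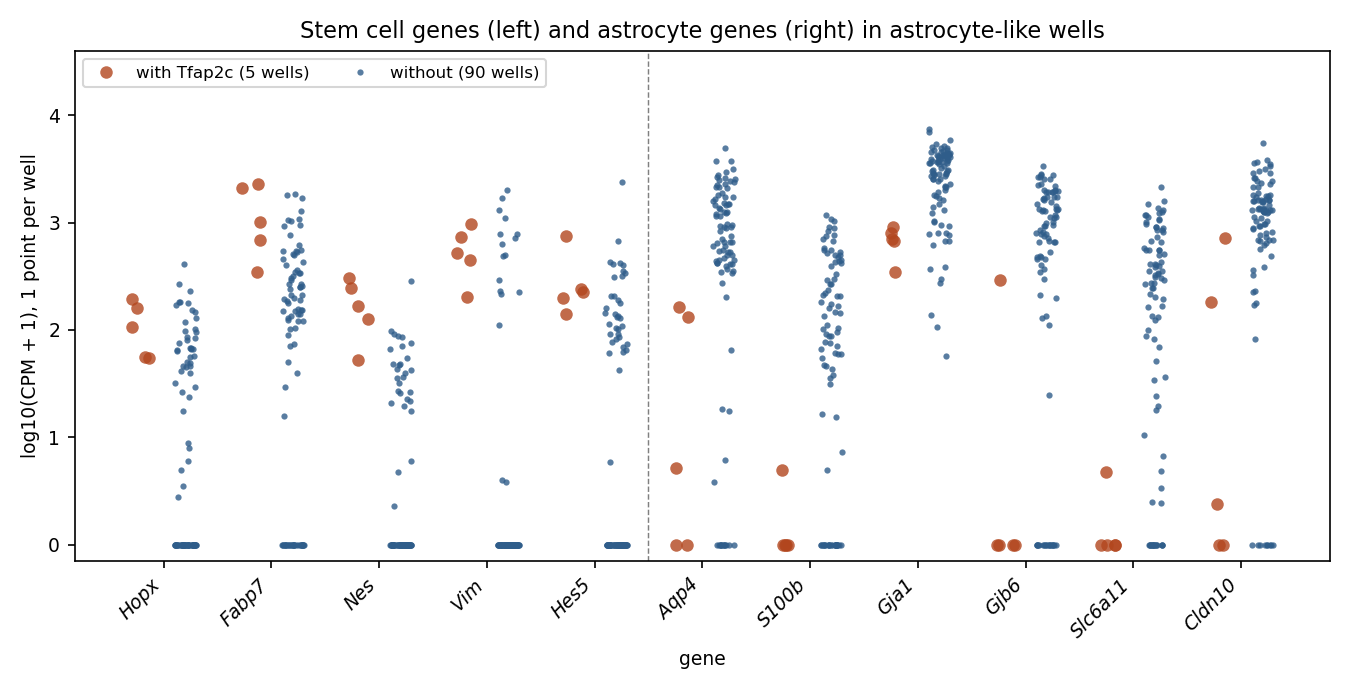
Level of 11 genes, as log10(CPM + 1) on the vertical axis, in each astrocyte-like well with *Tfap2c* (5 wells, left of each pair) and without (90 wells, right), with genes of stem cells left of the dashed line and astrocyte genes right of it. *Nes* ran from 51.8 to 302.9 CPM in the wells with *Tfap2c*, and *S100b* reached at most 3.99 CPM in them. Genes of these lists that went the other way, among them *Gfap*, *Sox21*, *Itih3* and *Mlc1*, are not drawn.

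The members did not run in parallel across the 2 astrocyte-like clusters. By mouse, *Hopx* was higher in cluster 6 than in cluster 8 in 7 of 8 mice (median 49.5 and 20.1 CPM), *Sox9* in 8 (603 and 369.3 CPM) and *Fabp7* in 8 (434 and 152.3 CPM), while *Fgfr3* was lower in cluster 6 in 8 (579 and 1961 CPM) and *Egfr* in 6 of 8 (78.9 and 129.98 CPM). *Nr2e1* was split, 4 mice each way, and *Sox2* was higher in cluster 6 in 5 of 8 (43.9 and 14.5 CPM). The connexin *Gjb6*, a gene of mature astrocytes, was lower in cluster 6 in all 8 mice (511 and 1381 CPM), and *Nes* was higher there in 7 (33.7 and 6.88 CPM). Of the other radial glia genes, *Gfap* was higher there in 7 mice and *Id4* in 6, while *Hes5* was higher in 3 and lower in 5. The 10 astrocyte-like wells without *Fgfr3* were all in cluster 6, with a median of 1514.5 genes, and 32 of the 40 *Egfr* wells were in cluster 8. By the title map the counts were 6 mice for *Hopx*, 8 for *Sox9*, 7 for *Fabp7* and 8 for *Nes* higher in cluster 6, and 8 for *Fgfr3*, 7 for *Egfr*, 5 for *Nr2e1* and 7 for *Gjb6* lower there. The 10 genes were kept out of the clustering, but *Gjb6*, *Nes*, *Gfap*, *Id4*, *Hes5* and *Aqp4* were not. Their differences between the clusters may therefore come in part from how the clusters were drawn. Some sums rest on few wells, so all these values are a description with no test.

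The neuroblast-like wells, named for genes such as *Dcx* and *Neurod1*, divided by *Sox9*. It was detected in 17 wells from 7 mice (median 3497 genes) and not in 21 wells from 8 mice (median 3075 genes). *Fabp7* was in 11 wells with *Sox9* and 1 without, *Egfr* in 7 and 1, *Tfap2c* in 4 and 0, *Eomes*, a factor of intermediate progenitors, in 11 and 5, and *Vim* in 7 and 2. *Calb2* (calretinin), a marker of immature granule neurons, was in 4 wells with *Sox9* and 17 without, and *Neurod2* in 0 and 9. *Dcx* was in 14 and 18 wells and *Sox11* in all wells of both kinds. The proliferation genes *Mki67* (5 and 1 wells) and *Top2a* (3 and 0) were added after the other values were seen. Of the astrocyte markers, *Aqp4* and *Mlc1* were at 0 in both kinds of well, *Gja1* was in 3 and 0, and *Slc1a3* in 13 and 10. Of all 10 astrocyte markers, 5 had a higher mean with *Sox9*, 3 a lower one and 2 were at 0 in both. Of the 21 other radial glia genes, 15 had a higher mean with *Sox9*, 2 a lower one and 4 were at 0 in both. All 4 neuroblast-like wells with *Tfap2c* held *Sox9* and *Eomes*, with *Tfap2c* at 14.5, 19.0, 103.2 and 322.8 CPM, and *Fgfr3* was at 0 in each. *Hopx* stood at 0, 32.6, 0 and 0 CPM in these wells, in the same order.

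**Figure D4:**
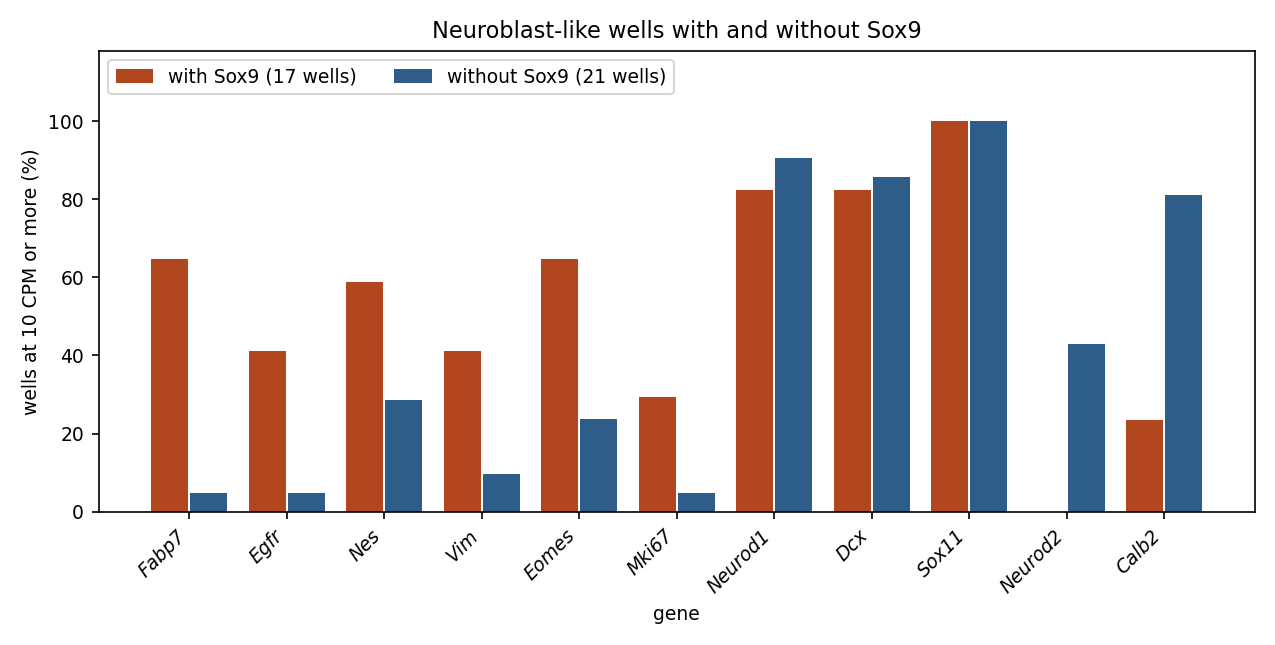
Share (%) of neuroblast-like wells with 10 CPM or more of each gene, for wells with *Sox9* (17 wells, left bars) and without (21 wells, right bars). *Fabp7* stood at 64.7% with and 4.76% without *Sox9*, and *Calb2* at 23.5% with and 80.95% without.

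The main comparison of the study is the miR-132 mimic against the control oligonucleotide, and no member passed the tests used. Over all kept wells summed per mouse, 0 of 10 members and 0.0% of the 15380 genes tested were called (edgeR quasi-likelihood test with date as covariate; 576 genes, 1 member among them, at an unadjusted p under 0.05; DESeq2 called 79 genes and no member). *Fgfr3* had 270.8, 120.9, 208.8 and 369.9 CPM in miR-132 mice 2, 4, 6 and 8, and 141.2, 168.6, 109.6 and 138.8 CPM in Control mice 1, 3, 5 and 7, with mouse 4 inside the control range (log2 0.74 ± 0.32, SE, p = 0.0479, edgeR adjusted p = 0.9997). *Sox9* had 123.4, 35.4, 70.7 and 74.2 CPM in miR-132 mice and 39.9, 57.2, 52.9 and 42.7 CPM in Control mice (log2 0.62 ± 0.37, adjusted p = 0.9997). *Lpar1* had 286.2, 181.2, 167.2 and 150.6 CPM in miR-132 mice and 262.6, 226.3, 254.6 and 172.2 CPM in Control mice (log2 -0.29 ± 0.23, adjusted p = 0.9997). The groups overlapped for every member.

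The share of astrocyte-like wells also varied between mice, and its part in these sums was not tested. They were 23.9, 10.7, 13.95 and 17.6% of the kept wells in miR-132 mice and 7.87, 16, 8.24 and 13.4% in Control mice. In sums over all wells, more cells of a class and more RNA per cell cannot be told apart. By date, the *Fgfr3* difference was 40.9 CPM (miR-132 minus Control) on 17 April and 165.1 CPM on 19 April. With wells placed by the sample titles the log2 difference of *Fgfr3* was -0.31 and that of *Sox9* -0.01.

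Within the astrocyte-like wells, 8 of the 10 members passed the filter on low counts (not *Lpar1* and *Riiad1*), and 0 of them and 0.0% of the 9039 genes tested were called (1.79% of them, none a member, at an unadjusted p under 0.05; DESeq2 called 65, no member). *Egfr*, the member with miR-132 seed matches, had 111.7, 285.7, 69.2 and 325.2 CPM in miR-132 mice and 93.2, 266.3, 141.7 and 38.6 CPM in Control mice. The groups overlapped (log2 0.56 ± 0.73, SE, edgeR adjusted p = 0.9996), and the difference was 19.0 CPM on 17 April and 107.05 CPM on 19 April. *Hopx* had 50.6, 29.1, 44.95 and 40.02 CPM in miR-132 mice and 15.5, 87.9, 31.5 and 30.6 CPM in Control mice, where mouse 3 was highest (log2 -0.04 ± 1.20, adjusted p = 0.9996). *Nr2e1* had 86.1, 14.1, 92.2 and 80.9 CPM in miR-132 mice and 22.1, 137.2, 121.1 and 132 CPM in Control mice, with 1 low mouse in each group (log2 -0.67 ± 0.89, adjusted p = 0.9996).

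*Fabp7* averaged 328.8 ± 162.2 CPM in miR-132 mice and 301.07 ± 97.3 CPM in Control mice (SD, n = 4 each), *Sox9* 478 ± 43.6 and 441 ± 126.2 CPM, *Sox2* 44.6 ± 31.03 and 40.4 ± 40.5 CPM, and *Fgfr3* 1639 ± 469 and 1472 ± 442 CPM. The fitted log2 difference was 0.11 ± 0.49, 0.06 ± 0.34, 0.18 ± 1.26 and 0.08 ± 0.29 for these 4 (SE, edgeR adjusted p = 0.9996 each), where the median over all genes tested was 0.25. *Tfap2c* was above 0 in mice 2 and 6 of the miR-132 group (1.85 and 3.38 CPM) and mice 1 and 5 of the Control group (10.4 and 13.9 CPM). *Lpar1* had 14.7, 0.306, 50.8 and 0.0991 CPM in miR-132 mice and 0, 13.2, 0 and 0 CPM in Control mice, and *Riiad1* 22.4, 63.6, 0 and 0 CPM in miR-132 mice and 0, 0, 0 and 13.7 CPM in Control mice. Summed ependymal markers ran from 23.2 to 1478 CPM in miR-132 mice and from 0 to 77.5 CPM in Control mice, and their part in these values was not tested.

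By cluster, no member was called in cluster 6 (7 mice with at least 3 wells, 3 of them miR-132) or cluster 8 (8 mice), and *Egfr* had a log2 difference of -2.25 in cluster 6 and 1.05 in cluster 8 (edgeR adjusted p = 0.9994 and 1.0). None of the other lists held a called gene in either comparison. Of the 17 other radial glia genes tested over all wells, 10 had a positive log2 difference (median 0.28), and within astrocyte-like wells 6 of 14 (median -0.20, against 0.25 for all genes).

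No share of astrocyte-like wells with a member passed an exact two-sided permutation test over the 70 arrangements of 4 mice against 4, whose smallest possible p is 0.0286. The lowest p was for *Fabp7*, in 81.8, 50, 41.7 and 56.3% of wells in miR-132 mice and 71.4, 100.0, 85.7 and 63.6% in Control mice (57.4 ± 17.3% and 80.2 ± 16.1%, SD, n = 4 each, exact p = 0.114, Benjamini-Hochberg adjusted p = 0.857). *Hopx* was in 40.9, 50, 50 and 37.5% of wells in miR-132 mice and 28.6, 75, 42.9 and 36.4% in Control mice (exact p = 0.943). The other members had exact p from 0.257 to 0.886. With 7 to 22 astrocyte-like wells per mouse, 1 well is worth between 4.55 and 14.3 percentage points.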

How the data were processed

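The deposited table holds whole-number read counts per gene and well. Per the labels' protocols, cells were sorted into wells and libraries made by Smart-seq2 with oligo-dT priming and Nextera XT, without molecular identifiers or strand. The mm10 build, STAR, featureCounts 1.5.1 from Subread, Seurat 2.3.1 and FastQC are named per the submitters' processing notes, with roles and order not given in the sources used here.

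From these counts, 675 wells with at least 50000 counts and 1000 genes were kept. CPM were computed from all gene counts of a well, or of the wells summed per mouse. Wells were assigned to mice by the sample descriptions, with the sample titles as the alternative. Clustering used scanpy 1.11.5 and igraph 0.11.9 (2000 variable genes, 20 principal components, 15 neighbours, resolution 1), without the 10 genes. Classes were named from marker lists that exclude them, and wells above 6000 genes were left unnamed. No doublet caller was run.

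The main test, on counts summed per mouse, was the quasi-likelihood test of edgeR 4.0.16 in R 4.3.3 after filterByExpr and TMM, with date as covariate for the treatment, and with the mouse as block for classes of at least 5 wells in a mouse and at least 3 mice. Adjusted p-values are Benjamini-Hochberg over all genes tested, with a threshold of 0.05. Shares per mouse were tested with exact permutation in scipy 1.17.1, where 70 arrangements allow no p under 0.0286. DESeq2 1.42.0, other size factors, no low-count filter, other class rules, other detection limits and leaving out each mouse were alternatives. Fits on each cluster alone, class contrasts by the sample titles, cluster 6 alone for Tfap2c and wells thinned to 200000 counts were chosen after seeing the data. The edgeR and DESeq2 fits were checked on simulated counts with large planted changes in genes with many counts and a fixed spread. That check does not show what the tests could find among small changes or sparse genes. The permutation test was not simulated.

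Intervals and floors (3 counts) cover counting error only. The p-values of the treatment comparison measure the spread between mice, 4 per group in the main tests. Those between classes measure the spread of class differences within mice. They rest on sums from 8 mice for astrocyte-like, oligodendrocyte-like and pericyte-like wells, 7 for endothelial-like and 3 for neuroblast-like wells. The named genes are the 10 members and fixed lists of their relatives, with examples taken by role or size, and the 5 genes most like Hopx. Values of 1 listed gene are not reported here. Members and lists were chosen with earlier results of these data known.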

Additional observations from a re-analysis of the deposited data

Results flagged for a closer look

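In 9 of the 60 groups of 4 mice tested, 1 mouse stood apart from the other three by Dixon's test at the 95% level, where chance marks about 1 group in 20. In 5 of the 9 the other three mice were equal, at 0 or at 100%, so that any other value would be marked and that rate does not apply to them. *Nr2e1* was low in miR-132 mouse 4, at 1.37 CPM over all kept wells and 14.1 CPM in astrocyte-like wells, and low in Control mouse 1, at 22.1 CPM in astrocyte-like wells. *Sox2* was high in Control mouse 5, at 100.8 CPM in astrocyte-like wells. *Sox9* was in 93.75% of the astrocyte-like wells of miR-132 mouse 8, against 100% in the other miR-132 mice. *Lpar1* was above 0 in 1 Control mouse, mouse 3, at 13.2 CPM and 8.33% of astrocyte-like wells. *Riiad1* was above 0 in 1 Control mouse, mouse 7, at 13.7 CPM and 18.2% of astrocyte-like wells.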

How the results depend on the processing

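No paired analysis was possible because the miR-132 and Control mice share no replicate numbers. Of 415 member values of the treatment comparisons under the alternatives, 61 took the other sign and 0 passed the threshold. The count of all genes called over all kept wells was 0, against 79 with DESeq2 and 84 without the low-count filter, and in astrocyte-like wells 0, against 65 and 2. With wells placed by the sample titles, the log2 difference over all kept wells turned to -0.082 for *Hopx*, -0.45 for *Sox2*, -0.011 for *Sox9*, -0.11 for *Fabp7*, -0.24 for *Egfr* and -0.31 for *Fgfr3*. In astrocyte-like wells the titles gave -0.96 for *Sox2*, -0.11 for *Sox9*, 0.0925 for *Tfap2c*, 1.27 for *Nr2e1*, -1.10 for *Egfr* and -0.27 for *Fgfr3*, and share differences of 6.56 points for *Nr2e1*, -7.55 for *Egfr* and -0.73 for *Riiad1*. *Hopx* in astrocyte-like wells was 0.0042 without the filter, 0.043 with classes by marker mean, 0.037 in cluster 6 and 0.29 in cluster 8, and its share difference 3.86 points at 1 count, 5.38 at 50 CPM and 1.14 with classes by marker mean. *Sox2* was -0.065 with classes by marker mean. With DESeq2 and with RLE size factors *Sox9* was -0.0306 and -0.031 and *Fgfr3* -0.0072 and -0.0074. Cluster 6 alone gave -2.25 for *Egfr* and -0.79 for *Fgfr3*. The cause was not tested.

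Leaving out 1 mouse at a time, the log2 difference over all kept wells ran from -0.23 to 0.99 for *Egfr*, -0.16 to 0.77 for *Fabp7*, -0.77 to 1.14 for *Nr2e1*, -1.38 to 2.00 for *Riiad1*, -0.42 to 0.87 for *Sox2* and -0.68 to 2.45 for *Tfap2c*. In astrocyte-like wells it ran from -0.16 to 1.08 for *Egfr*, -0.26 to 0.45 for *Fabp7*, -0.13 to 0.31 for *Fgfr3*, -0.30 to 0.75 for *Hopx*, -1.34 to 0.037 for *Nr2e1*, -0.86 to 0.72 for *Sox2* and -0.033 to 0.25 for *Sox9*. Share differences ran from -7.33 to 8.83 points for *Egfr*, -6.80 to 8.67 for *Hopx* and -0.57 to 5.30 for *Lpar1*. Between classes, *Lpar1* against pericyte-like wells (0.85 by the sample titles) ran from -3.33 to 1.598 and *Tfap2c* against neuroblast-like wells from -4.23 to 0.68.

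Between classes, 16.6% of the genes tested were called against endothelial-like wells (DESeq2 31.9%, no mouse block 25.2%, 1 mouse left out 11.9 to 14.6%), 3.82% against neuroblast-like (19.0%, 6.27%, 1.252 to 3.27%, sample titles 7.46%), 14.4% against oligodendrocyte-like (DESeq2 24.7%, 10.4 to 12.6%) and 17.2% against pericyte-like wells (34.9%, 26.4%, 11.99 to 16.8%). The neuroblast-like share was 1.252, 1.253 and 1.44% without mouse 1, 2 and 3. The median of all genes moved by 0.27 (log2) with RLE size factors against oligodendrocyte-like wells, and with DESeq2 by 0.41 there, 0.12 against endothelial-like, 0.16 against neuroblast-like and -0.14 against pericyte-like wells. DESeq2 also called *Hopx* (adjusted p = 0.00261), *Nr2e1* (0.00183) and *Lpar1* (5.64e-13) against neuroblast-like wells and *Egfr* (0.00138) against pericyte-like wells. The edgeR adjusted p for these were 0.189, 0.212, 0.138 and 0.0513. *Lpar1* had no count in neuroblast-like wells, which rest on 3 mice, and its log2 difference fitted by DESeq2 was 20.02. By edgeR without the low-count filter *Lpar1* also passed there (adjusted p = 0.00431). The share of astrocyte-like wells with 5 or more members was 43.2%, and 29.5% at 50 CPM.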
